A study of Homo sapiens with 12 samples.

Results

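Glycolysis and hypoxia response genes were followed in AC16 cells exposed to doxorubicin. The set holds 38 genes, named by symbol and matched to Ensembl identifiers, out of 60607 identifiers in the count table. It has 24 genes of glucose uptake, glycolysis and lactate handling, and 14 genes of the hypoxia-inducible factor (HIF) pathway and its other targets. Of the 38, 37 passed the filter on low counts and were tested. The exception was EGLN3, with 22 counts summed over all libraries.

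Messenger RNA was sequenced in 12 libraries of AC16, a human ventricular line made by fusing adult heart cells with transformed fibroblasts. All libraries were wild type by label and fell into 4 groups of 3: DMEM medium alone (control), and 0.1 µM doxorubicin for 2, 4 or 6 days. Doxorubicin is an anthracycline that traps topoisomerase II on DNA, and the study asks how its heart toxicity develops with time. In the sample titles the exposures read 48, 96 and 112 hours, and day 6 appears in all of them. The length of the last exposure is thus labelled in different ways, and whether each one ended at harvest is not stated. The labels name no low-oxygen treatment. They also do not say whether the 3 repeats per group were grown separately, so the p-values cover the spread of these repeats alone, which could be technical.

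Glycolysis splits glucose into pyruvate in the cytosol, and lactate dehydrogenase then turns pyruvate into lactate when it is not burned in mitochondria. HIF is a pair of proteins, an oxygen-regulated alpha subunit (HIF1A or EPAS1) and a stable beta subunit. With oxygen present, EGLN enzymes hydroxylate the alpha subunit and mark it for destruction, so HIF activity is set largely at the protein level. HIF binds a short DNA core and raises many glycolytic genes along with genes of pH control, mitophagy and collagen synthesis. Adult heart muscle lives mainly on fatty acids and shifts toward glucose under stress.

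Promoter sequence was available for 34 of the 38 genes in RefSeq (GRCh38.p14), as windows of 250 bases before to 50 after a start site. The core of the HIF-binding element was searched as ACGTG or GCGTG on both strands, with overlapping matches merged. It stood in 42 of 62 windows of these genes (67.7%), against 48.5% of 35116 windows of all genes and 54.7% of 22199 windows of protein-coding genes. These letters are common, and a match is a description and not a binding site. The 4 windows below, all on the minus strand, were picked to set genes that moved differently beside each other: PFKFB4 (chr3:48556754-48557053) and BNIP3 (chr10:131981874-131982173), which rose and hold the core, P4HA2 (chr5:132227042-132227341), which rose and has no match in this window, and ALDOC (chr17:28576846-28577145), which fell and holds the core. Capitals mark the matches, read 5′ to 3′ along the gene.
PFKFB4: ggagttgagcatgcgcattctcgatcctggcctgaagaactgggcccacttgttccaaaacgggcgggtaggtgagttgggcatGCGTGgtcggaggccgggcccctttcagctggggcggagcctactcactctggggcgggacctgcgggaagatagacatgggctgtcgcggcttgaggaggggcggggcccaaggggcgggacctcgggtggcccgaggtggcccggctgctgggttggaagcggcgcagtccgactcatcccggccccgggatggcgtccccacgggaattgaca
BNIP3: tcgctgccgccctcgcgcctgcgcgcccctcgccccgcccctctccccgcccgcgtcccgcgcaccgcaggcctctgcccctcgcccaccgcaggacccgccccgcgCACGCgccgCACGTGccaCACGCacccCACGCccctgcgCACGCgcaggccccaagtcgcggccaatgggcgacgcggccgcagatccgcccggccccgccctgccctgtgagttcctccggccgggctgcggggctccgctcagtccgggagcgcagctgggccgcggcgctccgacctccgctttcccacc
P4HA2: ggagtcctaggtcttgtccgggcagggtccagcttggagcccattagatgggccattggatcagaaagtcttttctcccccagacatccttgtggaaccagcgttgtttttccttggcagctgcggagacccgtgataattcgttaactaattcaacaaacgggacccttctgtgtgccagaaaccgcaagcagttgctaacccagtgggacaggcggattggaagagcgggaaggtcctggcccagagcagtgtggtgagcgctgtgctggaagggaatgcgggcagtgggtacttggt
ALDOC: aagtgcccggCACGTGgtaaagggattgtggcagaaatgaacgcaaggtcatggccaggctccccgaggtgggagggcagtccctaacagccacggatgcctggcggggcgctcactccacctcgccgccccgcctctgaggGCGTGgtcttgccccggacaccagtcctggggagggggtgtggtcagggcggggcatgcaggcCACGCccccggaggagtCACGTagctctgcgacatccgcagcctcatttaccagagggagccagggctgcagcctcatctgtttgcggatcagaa
Merged matches numbered 1 in PFKFB4, 5 in BNIP3, 0 in P4HA2 and 4 in ALDOC.

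Total counts lay between 14835743 and 21226441 per library. Levels below are CPM, library-scaled counts after TMM normalisation, log2 fold changes are given ± SE, and adjusted p-values come from edgeR's quasi-likelihood test with Benjamini-Hochberg adjustment over 17320 genes. "Rose" and "fell" are used of genes with an adjusted p under 0.05. Heart muscle identity was weak by marker genes: of 10 cardiac muscle markers 1 was tested, MYL2 was at 0 in every library, and no marker passed 1.16 CPM in any library. The 1 tested rose at each exposure, with log2 fold changes of 3.83, 2.73 and 3.46 at these low levels. The 10 summed to 0.57 to 0.98 CPM in control, 1.23 to 1.76 at day 2, 0.78 to 1.75 at day 4 and 1.53 to 1.71 at day 6. Summed fibroblast markers lay at 7605 to 8346 CPM in control, 11506 to 11847 at day 2, 9914 to 10429 at day 4 and 8452 to 8910 at day 6. Summed epithelial markers lay at 88.1 to 119.6, 227.5 to 253.5, 69.7 to 87.4 and 63.0 to 70.1 CPM in the same order. All 8 fibroblast markers were tested, as were all 4 epithelial markers, and none of them was at 0 in every library. One fibroblast marker alone reached 4852 CPM, and most members did not follow the sum at the later exposures. Of the 8, 5 rose and 1 fell at day 2, 2 rose and 4 fell at day 4, and 1 rose and 5 fell at day 6, with median log2 fold changes of 0.35, -0.42 and -0.55. Of the epithelial markers 2 rose and 1 fell at day 2, and 2 fell at each of days 4 and 6. Endothelial markers summed to at most 6.63 CPM, and blood and immune markers to at most 13.01 CPM, in any library. Of 3 endothelial markers tested, 1 rose and 2 fell at each of days 4 and 6. Of 3 blood and immune markers tested, 1 rose and 1 fell at each of these exposures. At day 2, 0 of either kind were called. The part of these markers in the results below was not tested. In bulk RNA a change in the share of cells of one kind and a change of RNA per cell cannot be told apart. Some libraries stood apart for these genes. Day 4 library 3 had the highest level of its group for 20 of 24 glycolysis genes and 10 of 13 HIF genes, against 35.1% of all tested genes. Day 4 library 2 had the lowest for 20 of the 24 (33.7% of all genes), and control 1 for 14 of them (32.9%). Mitochondrial protein-coding RNA held 4.22% of counts in day 2 library 3, against 6.00% and 5.94% in its group, and 6.12% in control 2, against 4.37% and 5.10% in its group. Calls that end without these 2 libraries, a choice made after seeing the data, are given beside their genes.

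Most of the glycolysis genes were higher after 2 days of doxorubicin. At day 2, 18 of 24 rose and 1 fell, with a median log2 fold change of 0.50. Over all tested genes 47.2% were called in this comparison, 23.8% as higher and 23.4% as lower, and the median was -0.01. At day 4, 17 rose and 3 fell with a median of 0.42, where 36.5% of all genes were called (18.8% higher, 17.7% lower). At day 6, 14 rose and 3 fell with a median of 0.28, where 43.7% were called (22% higher, 21.7% lower). Groups that did not overlap at all were seen for 18 glycolysis genes higher and 1 lower at day 2. Of all genes 52.2% did not overlap there (26.1% higher and 26.1% lower). At day 4 they were 15 higher and 3 lower (44.6% of all genes, 22.8% higher and 21.8% lower), and at day 6 they were 13 higher and 4 lower (50.9%, 25.8% higher and 25.1% lower). The 3 comparisons share the control libraries, so their counts are not independent of each other. The genes were also chosen with earlier results of these data known, so the shares of all genes serve as description only. Tested directly, 7 of the 18 that rose at day 2 were lower at day 4 than at day 2, 10 were not called, and PDK1 was higher. These 18 were picked by their day 2 libraries, which also enter this comparison, so the pick favours falls. The matching share among all genes that rose at day 2 was not taken.

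The HIF pathway genes and other HIF targets ranged from the 4.82-fold rise of NDRG1 at day 2, through small called rises such as those of CA9 and ADM, to genes that passed the test at no exposure. Of 13 tested, 7 rose and 0 fell at each of day 2, day 4 and day 6, with median log2 fold changes of 0.37, 0.32 and 0.27. Of all tested genes 23.8%, 18.8% and 22% were called higher at these exposures, and 23.4%, 17.7% and 21.7% lower. Exposed libraries lay wholly above the controls for 8, 7 and 7 of the 13 and wholly below for 0. The shares of all genes were 26.1%, 22.8% and 25.8% above, and 26.1%, 21.8% and 25.1% below. The 0 falls by edgeR were also 0 with DESeq2 and at an unadjusted p under 0.05, and the lowest log2 fold change among these genes was -0.03 at day 2, -0.14 at day 4 and -0.03 at day 6. Over all 4 groups at once, 30 of the 37 genes differed, where 63.4% of all tested genes did. Scaling by library totals alone shifted the median of all genes at day 2 to -0.14 and the split of calls to 3203 higher and 5386 lower, against 4122 higher and 4058 lower with TMM. Under it 17 glycolysis genes rose and 4 fell at day 2, and 6 HIF genes rose and 0 fell.

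**Figure D1:**
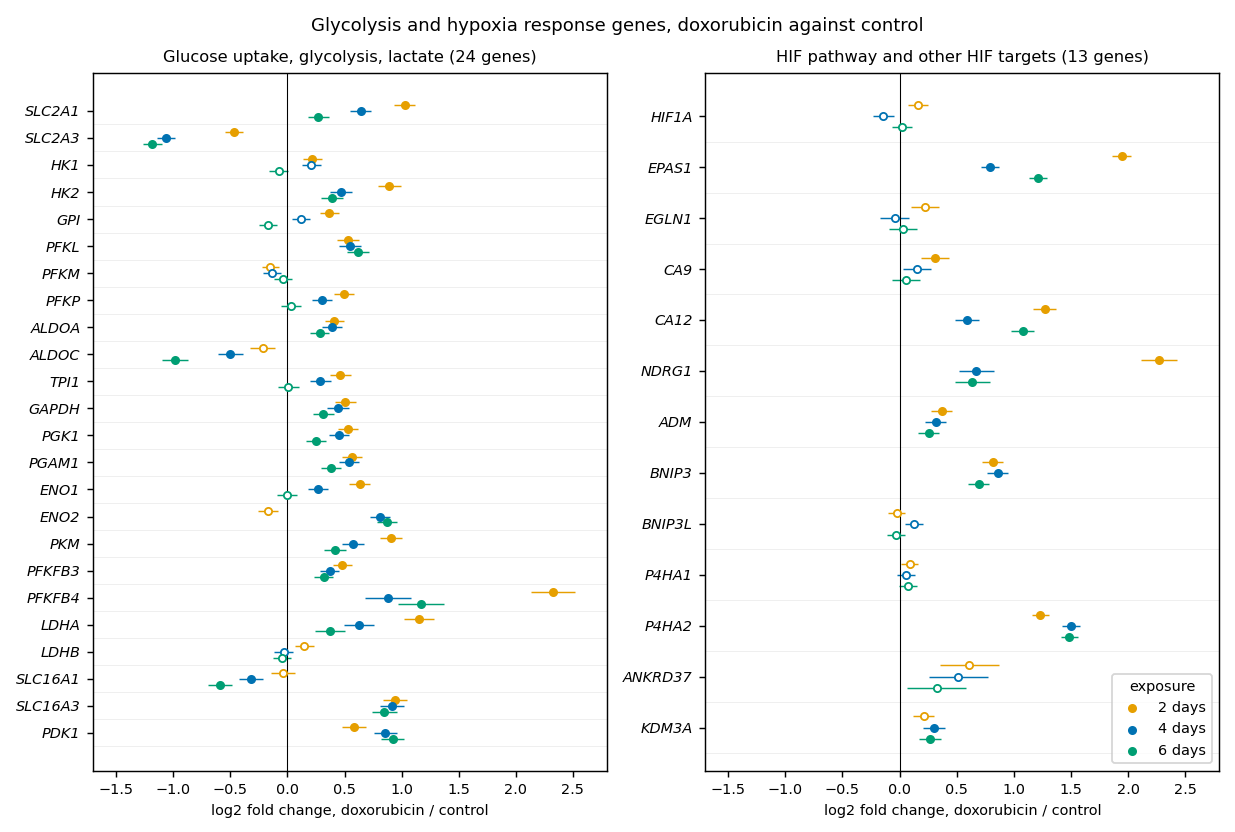
Log2 fold change (x axis) of the 37 tested genes (rows) at 2, 4 and 6 days of doxorubicin against control, with bars of 1 SE. Filled points have an adjusted p under 0.05. PFKFB4 and NDRG1 reach 2.32 and 2.27 at day 2, and SLC2A3 lies lowest at -1.18 at day 6.

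Summed over the 24 glycolysis genes, the level was 9786 ± 903 CPM in control, 14912 ± 279 at day 2, 12887 ± 1536 at day 4 and 11358 ± 321 at day 6 (SD, n = 3 each). The day 2 libraries, at 14610 to 15159 CPM, did not overlap the controls at 8743 to 10313. Day 4 was the most spread group, with libraries at 12643, 11487 and 14530 CPM. The 13 tested HIF genes summed to 2524 ± 127 CPM in control, 3954 ± 117 at day 2, 3122 ± 88.3 at day 4 and 3233 ± 75.1 at day 6, and day 2 lay above all other groups.

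**Figure D2:**
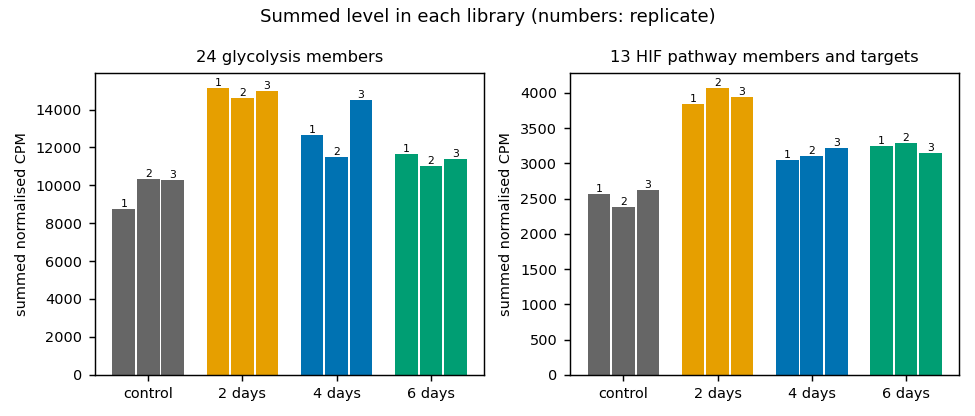
Summed TMM-normalised CPM (y axis, from 0) of the 24 glycolysis genes (left) and the 13 tested HIF genes (right), 1 bar per library with its replicate number, for control and 2, 4 and 6 days of doxorubicin. Day 2 is highest in both panels, and day 4 library 3 stands at 14530 CPM on the left.

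The glucose transporters moved in opposite directions. SLC2A1 (GLUT1, the widespread basal transporter; ENSG00000117394.24, chromosome 1, 42925375 to 42959176, minus strand, gene positions here and below from GENCODE 29 on GRCh38) had 77.5, 85.1 and 81.0 CPM in control, 173, 162 and 162 at day 2, 117, 114 and 149 at day 4, and 96.7, 94.1 and 103 at day 6. Every exposed library was above every control. It rose by 1.03 ± 0.09 at day 2 (adjusted p = 1.14e-09), 0.64 ± 0.09 at day 4 (adjusted p = 3.88e-06) and 0.27 ± 0.09 at day 6 (adjusted p = 0.0185). The day 6 call ended when control 1, control 3 or day 6 library 3 was left out, with log2 fold changes of 0.23 to 0.26 and adjusted p of 0.0512 to 0.0776.

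SLC2A3 (GLUT3, a high-affinity transporter best known from neurons; ENSG00000059804.16, chromosome 12, 7919230 to 7936275, minus strand) had 265, 265 and 250 CPM in control, 186, 197 and 182 at day 2, 127, 123 and 124 at day 4, and 109, 130 and 105 at day 6. All exposed libraries lay below all controls. The log2 fold change was -0.47 ± 0.08 at day 2 (adjusted p = 3.17e-05), -1.06 ± 0.08 at day 4 (adjusted p = 1.44e-10) and -1.18 ± 0.08 at day 6 (adjusted p = 1.3e-11). Its near-identical copy SLC2A14 held 0.770% as many counts. Per kilobase of exon, SLC2A3 stood at 30.6 ± 1.27 CPM and SLC2A1 at 35.0 ± 1.34 at day 2, while in control SLC2A3 stood at 42.2 ± 1.38 and SLC2A1 at 17.2 ± 0.80 (SD, n = 3).

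Among the 15 glycolytic enzymes, 12 rose and 0 fell at day 2. The 0 was also 0 with DESeq2 and at an unadjusted p under 0.05. At day 4, 11 rose and 1 fell, and at day 6, 8 rose and 1 fell. Of all tested genes 23.8%, 18.8% and 22% were higher at days 2, 4 and 6, and 23.4%, 17.7% and 21.7% lower. HK2 (hexokinase 2, the inducible enzyme that traps glucose as its phosphate; ENSG00000159399.10, chromosome 2, 74833981 to 74893359, plus strand) had 82.1, 75.1 and 87.3 CPM in control, 154, 134 and 166 at day 2, 108, 103 and 128 at day 4, and 109, 115 and 96.8 at day 6. No exposed library reached down to the controls. Its log2 fold changes were 0.89 ± 0.10, 0.47 ± 0.10 and 0.39 ± 0.10 at days 2, 4 and 6 (adjusted p = 4.47e-08, 0.00046 and 0.00209).

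PKM (pyruvate kinase, the last step of glycolysis; ENSG00000067225.19, chromosome 15, 72199029 to 72231822, minus strand) had 1079, 1361 and 1367 CPM in control, 2501, 2341 and 2307 at day 2, 1848, 1674 and 2152 at day 4, and 1756, 1615 and 1703 at day 6. Its exposed libraries all lay above the controls. The log2 fold changes were 0.91 ± 0.09, 0.58 ± 0.09 and 0.41 ± 0.09 (adjusted p = 2.08e-08, 3.05e-05 and 0.000918). The counts do not separate the PKM1 and PKM2 splice forms.

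ENO2 (gamma enolase, the form known from neurons; ENSG00000111674.9, chromosome 12, 6913745 to 6923698, plus strand) followed another course. It had 127, 137 and 137 CPM in control, 115, 128 and 113 at day 2, 220, 211 and 271 at day 4, and 250, 237 and 247 at day 6. Day 2 overlapped the controls, while days 4 and 6 lay above both. At day 2 the log2 fold change was -0.17 ± 0.09 (adjusted p = 0.109, 95% interval -0.35 to 0.01), and ENO2 rose by 0.81 ± 0.09 at day 4 (adjusted p = 5.55e-08) and 0.87 ± 0.09 at day 6 (adjusted p = 1.1e-08). With library totals alone, the day 2 value was -0.30 with an adjusted p of 0.00795.

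ALDOC (aldolase C, the brain form; ENSG00000109107.14, chromosome 17, 28573115 to 28577264, minus strand) is the enzyme that fell. It had 31.3, 34.3 and 28.1 CPM in control, 27.6, 29.9 and 23.4 at day 2, 21.7, 20.3 and 24.4 at day 4, and 15.4, 16.4 and 15.6 at day 6. Days 4 and 6 lay below the controls and day 2 overlapped them. Its log2 fold changes were -0.22 ± 0.11 (adjusted p = 0.105), -0.50 ± 0.11 (adjusted p = 0.000819) and -0.98 ± 0.11 (adjusted p = 1.02e-07). With library totals alone the day 2 value was -0.34 with an adjusted p of 0.012.

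The other 11 enzymes are the main forms of each step. HK1, GPI, PFKL, PFKP, ALDOA, TPI1, GAPDH, PGK1, PGAM1 and ENO1 rose at day 2, by 0.22 to 0.63 on the log2 scale. PFKM, the muscle phosphofructokinase, passed the test at no exposure, with log2 fold changes of -0.15, -0.14 and -0.04. With library totals alone its day 2 value was -0.27 with an adjusted p of 0.00525. The exons of PFKM overlap those of SENP1 on the other strand over 8.58% of their bases. At day 4, PFKL, PFKP, ALDOA, TPI1, GAPDH, PGK1, PGAM1 and ENO1 rose, by 0.27 to 0.55. HK1 had 0.21 at day 4 (adjusted p = 0.0546), close to its 0.22 at day 2. It was called at day 4 with DESeq2 (0.21, adjusted p = 0.0481) and without control 2 or day 4 library 2 (0.25 and 0.29, adjusted p = 0.0211 and 0.0126). The same held without control 2 and day 2 library 3 together (0.25, adjusted p = 0.0182). At day 6, PFKL, ALDOA, GAPDH, PGK1 and PGAM1 rose, by 0.25 to 0.61. GPI had -0.17 at day 6 (adjusted p = 0.0929), with every day 6 library below the controls. Without control 1 it had -0.22, with an adjusted p of 0.0461. GAPDH, the textbook reference gene of expression assays, averaged 2317 ± 313 CPM in control, 3291 ± 127 at day 2, 3149 ± 347 at day 4 and 2881 ± 73.6 at day 6 (SD, n = 3). Several of the small rises hung on single libraries. Leaving out day 4 library 3 or control 1 ended the day 4 calls of PFKP, TPI1 and ENO1, with log2 fold changes of 0.18 to 0.24 and adjusted p of 0.0553 to 0.142, and day 4 library 1 ended that of ENO1 (0.26, adjusted p = 0.0581). In a fit of day 4 and control alone the adjusted p was 0.0505 for TPI1 and 0.0629 for ENO1. The day 6 call of GAPDH was lost without control 1 (0.21, adjusted p = 0.071), and that of PGK1 without control 1, control 2, day 6 library 1 or day 6 library 2 (0.20 to 0.26, adjusted p = 0.0529 to 0.134). The day 2 call of HK1 was lost without control 1, control 3, day 2 library 1 or day 2 library 3 (0.16 to 0.23, adjusted p = 0.0585 to 0.17), and with library totals alone (0.09, adjusted p = 0.376).

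Both regulators rose. They make or remove fructose 2,6-bisphosphate, the strongest activator of phosphofructokinase. PFKFB4 (ENSG00000114268.12, chromosome 3, 48517684 to 48562015, minus strand) had 12.5, 11.5 and 10.6 CPM in control, 59.8, 52.8 and 60.7 at day 2, 15.6, 17.0 and 31.0 at day 4, and 26.1, 25.1 and 26.7 at day 6. Every exposed library lay above the controls, and day 2 lay above all others. The rise was 5.01-fold at day 2 (log2 2.32 ± 0.20, adjusted p = 1.06e-07), with log2 fold changes of 0.88 ± 0.20 at day 4 (adjusted p = 0.0030) and 1.17 ± 0.20 at day 6 (adjusted p = 0.000209). Without day 4 library 3 the day 4 value was 0.50 (adjusted p = 0.00224). Without control 2 and day 2 library 3, which stood apart in their mitochondrial share, the day 4 adjusted p was 0.0502.

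PFKFB3 (ENSG00000170525.21, chromosome 10, 6144934 to 6254644, plus strand) had 66.6, 63.2 and 62.9 CPM in control, 92.7, 89.3 and 87.0 at day 2, 84.9, 73.4 and 90.8 at day 4, and 79.4, 82.3 and 78.2 at day 6. The exposed libraries were all above the controls. It rose by 0.48 ± 0.08, 0.37 ± 0.08 and 0.32 ± 0.08 on the log2 scale at days 2, 4 and 6 (adjusted p = 3.43e-05, 0.000979 and 0.0032).

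**Figure D3:**
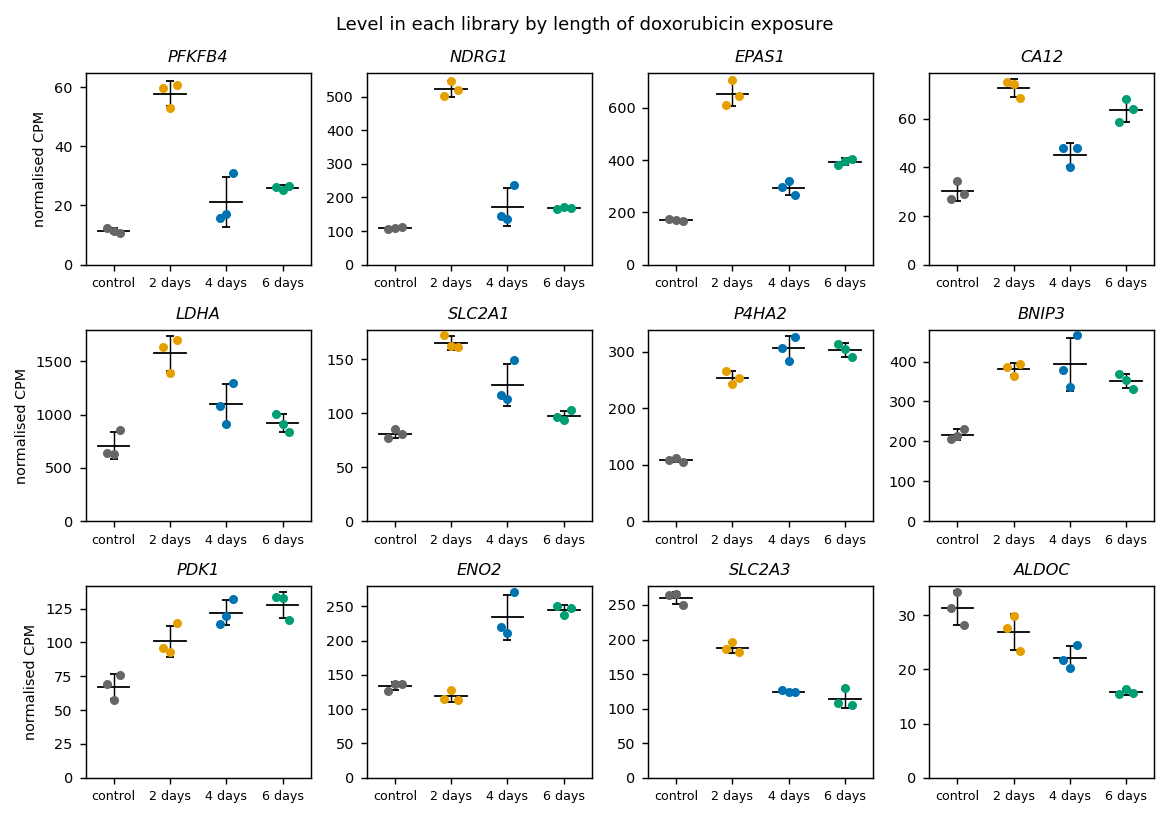
TMM-normalised CPM (y axes, from 0) of 12 genes in each library of the control and of 2, 4 and 6 days of doxorubicin (x axes), with the mean (line) and SD (bar) of 3 libraries. PFKFB4, NDRG1 and EPAS1 peak at day 2, P4HA2 and PDK1 stay high to day 6, ENO2 is high at days 4 and 6, and SLC2A3 and ALDOC are lowest at day 6.

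Of the 5 genes of lactate and pyruvate handling, 3 rose at each exposure, LDHA, SLC16A3 and PDK1. The share of all tested genes called higher was 23.8% at day 2, 18.8% at day 4 and 22% at day 6. LDHA (the lactate dehydrogenase subunit that favours lactate; ENSG00000134333.14, chromosome 11, 18394388 to 18408425, plus strand) had 638, 634 and 858 CPM in control, 1631, 1393 and 1703 at day 2, 1077, 916 and 1300 at day 4, and 1008, 908 and 838 at day 6. Days 2 and 4 lay above the controls, and day 6 overlapped control 3. The log2 fold changes were 1.15 ± 0.13, 0.63 ± 0.13 and 0.37 ± 0.13 (adjusted p = 1.02e-06, 0.00095 and 0.0278). The day 6 call was lost without control 1, control 2, day 6 library 1 or day 6 library 2, at 0.30 to 0.38 with adjusted p of 0.0618 to 0.191, and without control 2 and day 2 library 3 together (0.29, adjusted p = 0.219). LDHB, the subunit that favours pyruvate, had log2 fold changes of 0.15, -0.03 and -0.05 and passed the test at none. Without control 2 or day 2 library 2 its day 2 value was 0.22 or 0.23, with adjusted p of 0.0273 and 0.0368.

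SLC16A3 (MCT4, a lactate exporter; ENSG00000141526.18, chromosome 17, 82228397 to 82261129, plus strand) had 70.2, 79.1 and 75.2 CPM in control, 140, 157 and 135 at day 2, 126, 127 and 171 at day 4, and 126, 126 and 152 at day 6. All exposed libraries lay above the controls. Its log2 fold changes stayed at 0.94 ± 0.11, 0.92 ± 0.11 and 0.85 ± 0.11 (adjusted p = 1.02e-07, 2.65e-07 and 6.28e-07). Its exons overlap CSNK1D on the other strand over 5.36% of their bases, and the strand setting of the counting is not given in the sources used here.

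SLC16A1 (MCT1, a transporter of lactate in either direction; ENSG00000155380.13, chromosome 1, 112911847 to 112957013, minus strand) had 45.4, 33.7 and 43.1 CPM in control, 38.4, 39.9 and 40.8 at day 2, 30.3, 35.2 and 32.4 at day 4, and 25.3, 28.1 and 27.8 at day 6. Day 6 lay below the controls, while days 2 and 4 overlapped them. The log2 fold change was -0.04 ± 0.10 at day 2 (adjusted p = 0.786), -0.32 ± 0.10 at day 4 (adjusted p = 0.0168) and -0.59 ± 0.10 at day 6 (adjusted p = 5.51e-05). Without control 1, control 3 or day 4 library 1 the day 4 value was -0.28 to -0.24 with adjusted p of 0.072 to 0.117.

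PDK1 (a kinase that switches off pyruvate dehydrogenase and so blocks the conversion of pyruvate to acetyl-CoA; ENSG00000152256.14, chromosome 2, 172555373 to 172608669, plus strand) had 69.1, 57.1 and 75.7 CPM in control, 95.7, 92.8 and 114 at day 2, 114, 120 and 132 at day 4, and 134, 133 and 116 at day 6. No exposed library overlapped the controls. It rose by 0.58 ± 0.10, 0.86 ± 0.10 and 0.92 ± 0.10 (adjusted p = 3.76e-05, 2.56e-07 and 5.39e-08). Without control 2 and day 2 library 3 the day 2 value was 0.38, with an adjusted p of 0.000993.

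The alpha subunits of HIF differed. EPAS1 (HIF-2 alpha; ENSG00000116016.14, chromosome 2, 46293667 to 46386703, plus strand) had 173, 171 and 165 CPM in control, 609, 705 and 646 at day 2, 297, 319 and 266 at day 4, and 381, 395 and 406 at day 6. The groups did not overlap each other. The rise was 3.85-fold at day 2 (log2 1.94 ± 0.08, adjusted p = 1.33e-15), 1.73-fold at day 4 (0.79 ± 0.08, adjusted p = 1.95e-08) and 2.32-fold at day 6 (1.21 ± 0.08, adjusted p = 6.27e-12).

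HIF1A (HIF-1 alpha; ENSG00000100644.17, chromosome 14, 61695513 to 61748259, plus strand) had 967, 795 and 933 CPM in control, 919, 1098 and 1002 at day 2, 770, 919 and 752 at day 4, and 901, 933 and 904 at day 6. Every group overlapped the controls. The log2 fold changes were 0.16 ± 0.09, -0.14 ± 0.09 and 0.02 ± 0.09, with 95% intervals of -0.02 to 0.35, -0.33 to 0.04 and -0.16 to 0.21 (adjusted p = 0.138, 0.229 and 0.863). Without control 2 and day 2 library 3, the day 4 value was -0.22 with an adjusted p of 0.0316. Per kilobase of exon HIF1A stood above EPAS1 in every group, at 195 ± 17.4 against 89.4 ± 6.62 CPM at day 2 (SD, n = 3).

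EGLN1 (PHD2, the main oxygen-sensing hydroxylase; ENSG00000135766.9, chromosome 1, 231363751 to 231425044, minus strand) had 16.2, 12.7 and 14.6 CPM in control, 15.5, 16.6 and 18.8 at day 2, 12.8, 13.6 and 15.9 at day 4, and 13.5, 14.4 and 16.4 at day 6. Its groups overlapped, with log2 fold changes of 0.22 ± 0.13, -0.04 ± 0.13 and 0.03 ± 0.13 (adjusted p = 0.153, 0.833 and 0.871; 95% intervals of -0.04 to 0.48, -0.30 to 0.22 and -0.23 to 0.29). EGLN3 (PHD3, itself a HIF target in many cells) had 1 count in control, 16 at day 2, 3 at day 4 and 2 at day 6, summed over 3 libraries, and was too low to test.

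Among the 10 other HIF targets, 6 rose at each exposure, against 23.8%, 18.8% and 22% of all tested genes at days 2, 4 and 6. NDRG1 (a stress-induced growth regulator; ENSG00000104419.17) had 106, 109 and 111 CPM in control, 501, 547 and 520 at day 2, 145, 135 and 238 at day 4, and 167, 172 and 167 at day 6. All exposed libraries lay above the controls, and day 2 lay far above the rest. It rose 4.82-fold at day 2 (log2 2.27 ± 0.16, adjusted p = 1.43e-08), with log2 fold changes of 0.67 ± 0.15 at day 4 (adjusted p = 0.00297) and 0.64 ± 0.15 at day 6 (adjusted p = 0.00349). Without day 4 library 3 the day 4 value was 0.37 (adjusted p = 0.00105), and without control 2 and day 2 library 3 the adjusted p was 0.0701 at day 4 and 0.0757 at day 6.

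CA12 (a membrane carbonic anhydrase that helps export acid; ENSG00000074410.14, chromosome 15, 63321378 to 63382161, minus strand) had 27.1, 34.3 and 29 CPM in control, 75.2, 74.2 and 68.5 at day 2, 47.8, 40.0 and 48.1 at day 4, and 58.7, 68.0 and 63.9 at day 6. The exposed libraries all lay above the controls. Its log2 fold changes were 1.27 ± 0.10, 0.59 ± 0.10 and 1.08 ± 0.10 (adjusted p = 1.47e-10, 5.11e-05 and 3.22e-09). CA9, its best-known hypoxia-induced relative, rose at day 2 by 0.31 ± 0.12 (adjusted p = 0.0428) and had 0.15 and 0.06 at days 4 and 6, below the threshold. The day 2 call of CA9 was lost with library totals alone (0.18, adjusted p = 0.231) and without control 1, control 3, day 2 library 2 or day 6 library 1 (0.24 to 0.33, adjusted p = 0.0526 to 0.174), and 38.5% of its exon bases overlap ARHGEF39 on the other strand.

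P4HA2 (a collagen prolyl 4-hydroxylase subunit; ENSG00000072682.20, chromosome 5, 132191838 to 132295315, minus strand) had 108, 112 and 104 CPM in control, 266, 244 and 253 at day 2, 308, 283 and 327 at day 4, and 314, 304 and 291 at day 6. No exposed library came near the controls, and days 4 and 6 overlapped each other above day 2. The log2 fold changes were 1.23 ± 0.08, 1.50 ± 0.08 and 1.49 ± 0.08 (adjusted p = 1.86e-12, 7.74e-14 and 6.12e-14). Its paralog P4HA1 had 0.09, 0.06 and 0.07 and did not pass the test.

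BNIP3 (a mitophagy receptor on the outer mitochondrial membrane; ENSG00000176171.11, chromosome 10, 131966455 to 131982013, minus strand) had 206, 214 and 231 CPM in control, 386, 365 and 394 at day 2, 378, 336 and 467 at day 4, and 368, 353 and 332 at day 6. Every exposed library lay above the controls. It rose by 0.82 ± 0.09, 0.86 ± 0.09 and 0.69 ± 0.09 (adjusted p = 9.23e-08, 6.56e-08 and 1.33e-06). BNIP3L, its relative with a like role, had -0.03, 0.13 and -0.03 and did not pass the test.

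ADM, which encodes the vasodilator peptide adrenomedullin, rose at each exposure by 0.37, 0.32 and 0.26. The day 4 call of ADM was lost without control 1 or day 4 library 3 (0.22 to 0.27, adjusted p = 0.0533 to 0.0826), and its day 6 call without control 1, day 6 library 2 or day 6 library 3 (0.15 to 0.26, adjusted p = 0.058 to 0.199). KDM3A, a histone demethylase, had 0.21 at day 2 (adjusted p = 0.0716) and rose by 0.30 at day 4 and 0.27 at day 6. Day 4 against day 2 it had 0.09 (adjusted p = 0.484). Without control 3 or day 2 library 2 the day 2 value of KDM3A was 0.31 or 0.28, with adjusted p of 0.0186 and 0.0382. Its day 4 call was lost without control 2 or day 4 library 3 (0.21 to 0.22, adjusted p = 0.0684 to 0.101), and its day 6 call without control 1, control 2 or day 6 library 2 (0.17 to 0.26, adjusted p = 0.054 to 0.13). Without control 2 and day 2 library 3 it had 0.21 at day 4 and 0.17 at day 6 (adjusted p = 0.0663 and 0.127). ANKRD37, at 2.56 ± 0.04 CPM at day 2 and 1.69 ± 0.43 in control, had log2 fold changes of 0.61 ± 0.26, 0.51 ± 0.26 and 0.32 ± 0.26 and did not pass the test (adjusted p = 0.0552 at day 2, where the groups did not overlap). Without control 3 its day 2 value was 0.80, with an adjusted p of 0.0315, and UFSP2 on the other strand shares 35.2% of its exon bases.

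Related genes shifted against each other within libraries, as ratios of counts with 0.5 added, which are free of the scaling between libraries but are not corrected for gene length and carry no test. The log2 ratio of SLC2A3 to SLC2A1 averaged 1.68 ± 0.08 in control, 0.19 ± 0.09 at day 2, -0.01 ± 0.22 at day 4 and 0.22 ± 0.22 at day 6 (SD, n = 3). For EPAS1 to HIF1A it averaged -2.40 ± 0.16, -0.62 ± 0.02, -1.47 ± 0.08 and -1.21 ± 0.05 in the same order. The exposed libraries lay beyond the control libraries for both pairs. ENO2 to ENO1 averaged -3.52 ± 0.09 in control, -4.33 ± 0.13 at day 2, -2.99 ± 0.09 at day 4 and -2.65 ± 0.04 at day 6, below the controls at day 2 and above them later. P4HA2 to P4HA1 averaged -1.51 ± 0.11, -0.36 ± 0.06, -0.06 ± 0.18 and -0.09 ± 0.08. SLC16A3 to SLC16A1 averaged 0.89 ± 0.31, 1.86 ± 0.13, 2.10 ± 0.27 and 2.31 ± 0.14, with all exposed libraries above the controls.

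**Figure D4:**
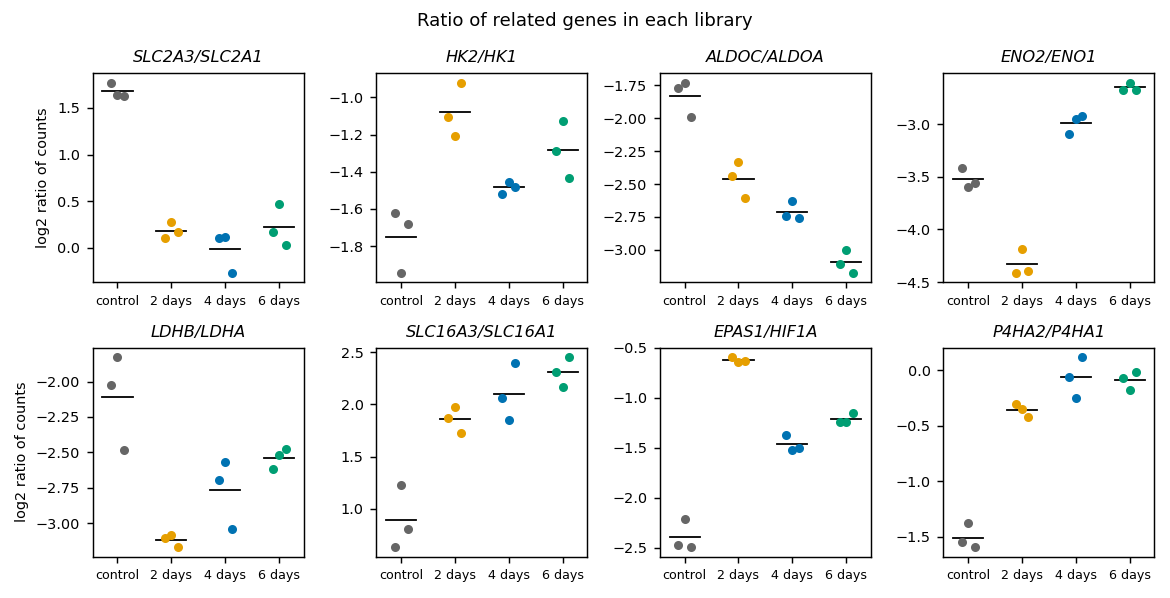
Log2 ratio of counts (y axes, ranges differ between panels) of 8 pairs of related genes in each library of the control and of 2, 4 and 6 days of doxorubicin (x axes), lines at the means of 3 libraries. SLC2A3/SLC2A1 averages 0.19 at day 2 and 1.68 in control, and ENO2/ENO1 is below the controls at day 2 and above them at days 4 and 6.

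Of the 25 genes that rose at day 2, 10 were lower at day 4 than at day 2, 13 were not called, and 2, PDK1 and P4HA2, were higher. The pick of these 25 by their day 2 libraries likewise favours falls. Of the 24 glycolysis genes 2 rose and 10 fell at day 4 against day 2, and of the 13 HIF genes 1 rose and 4 fell, where 34.8% of all genes were called (16.3% higher, 18.5% lower). Day 4 libraries lay wholly above those of day 2 for 3 of the 37 genes and wholly below for 14, where 45.9% of all genes did not overlap (22.2% higher, 23.7% lower). NDRG1 had the largest difference among the 37, at -1.60 ± 0.15 (adjusted p = 1.2e-06), followed by PFKFB4 at -1.44 ± 0.18 (adjusted p = 1.8e-05) and EPAS1 at -1.15 ± 0.08 (adjusted p = 5.23e-11). ENO2 rose by 0.98 ± 0.09 (adjusted p = 3.78e-09), P4HA2 by 0.27 ± 0.07 (adjusted p = 0.00681) and PDK1 by 0.27 ± 0.10 (adjusted p = 0.0347). HIF1A fell at day 4 against day 2, with a log2 fold change of -0.31 ± 0.09 (adjusted p = 0.00944). The LDHA call, at -0.52 ± 0.13 (adjusted p = 0.00426), was lost without control 2 and day 2 library 3 (-0.46, adjusted p = 0.0668). The PDK1 call was lost without day 2 library 1, day 2 library 2, day 4 library 2 or day 4 library 3 (0.21 to 0.28, adjusted p = 0.0655 to 0.17). The HIF1A call was lost without day 2 library 2, day 4 library 1 or day 4 library 3 (-0.27 to -0.25, adjusted p = 0.0569 to 0.0635).

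Between 4 and 6 days fewer genes were called. Of the 24 glycolysis genes 0 rose and 4 fell, and of the 13 HIF genes 2 rose and 0 fell, where 6.78% of all genes were called (3.05% higher, 3.73% lower). Both counts of 0 were also 0 with DESeq2 and at an unadjusted p under 0.05. Day 6 libraries lay wholly above those of day 4 for 3 of the 37 genes and wholly below for 8, where 27.6% of all genes did not overlap (13.3% higher, 14.3% lower). EPAS1 rose by 0.42 ± 0.08 (adjusted p = 0.00159) and CA12 by 0.49 ± 0.10 (adjusted p = 0.00283). The falls were SLC2A1, HK1, GPI and ALDOC, at -0.37, -0.28, -0.29 and -0.49. Without day 4 library 3 there were 0 such falls among the glycolysis genes and 1 rise, PFKFB4 at 0.67 (adjusted p = 0.000894).

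Other genes of the same pathways were taken from 4 further lists, also chosen with earlier results of these data known. Of 36 other glycolysis and glucose genes 23 were tested, of which 12 rose and 4 fell at day 2, 10 and 5 at day 4, and 9 and 6 at day 6. Over all tested genes 23.8% were higher and 23.4% lower at day 2, 18.8% and 17.7% at day 4, and 22% and 21.7% at day 6, for this list and those that follow. TIGAR, a p53 target that lowers fructose 2,6-bisphosphate, rose by 1.96 ± 0.10 at day 2, 1.13 ± 0.11 at day 4 and 1.01 ± 0.11 at day 6. PGM1, which interconverts glucose phosphates, and GYS1, glycogen synthase, rose at each exposure, by 1.10 and 1.18 at day 2. TKT, transketolase of the pentose phosphate pathway, rose by 0.79 ± 0.09 at day 2 and fell at day 4 and day 6, both at -0.35 ± 0.09.

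Of 15 genes of pyruvate entry into mitochondria 14 were tested, of which 3 rose and 5 fell at day 2, 5 and 5 at day 4, and 3 and 5 at day 6. The 3 that rose at day 2 are a share near the 23.8% of all genes called higher, and 23.4% were called lower. PDHB, a pyruvate dehydrogenase subunit, fell at each exposure, with log2 fold changes of -0.61 ± 0.08, -0.67 ± 0.08 and -0.83 ± 0.08. DLAT, the acetyl-transferring subunit of the same complex, had -0.78 ± 0.10, -0.36 ± 0.10 and -0.36 ± 0.10 and fell at each. PDK3, a sister kinase of PDK1, had -0.23 ± 0.14 at day 2 (adjusted p = 0.168) and rose by 0.56 ± 0.13 and 0.90 ± 0.13 at days 4 and 6. BSG, the chaperone of the lactate transporters, rose by 0.66, 0.54 and 0.35.

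Of 13 genes of the HIF machinery 12 were tested, of which 3 rose and 1 fell at day 2, and 1 rose and 4 fell at each of days 4 and 6. The 3 of 12 at day 2 are also near the 23.8% of all genes called higher. CITED2, which competes with HIF for its coactivators, rose by 0.64 ± 0.09 at day 2 and fell at days 4 and 6, at -0.47 ± 0.09 and -0.57 ± 0.09. The coactivator CREBBP had -0.07 ± 0.08 at day 2 (adjusted p = 0.527) and fell at days 4 and 6, at -0.57 ± 0.08 and -0.79 ± 0.08. Its relative EP300 fell at day 6, at -0.33 ± 0.09. ELOB, of the VHL ubiquitin ligase complex, rose by 0.63, 0.38 and 0.28.

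Of 38 other HIF targets 35 were tested, of which 20 rose and 6 fell at day 2, 23 and 5 at day 4, and 24 and 6 at day 6. Their median log2 fold changes were 0.34, 0.44 and 0.46. VEGFA, the angiogenic growth factor, averaged 167 ± 1.33 CPM in control, 429 ± 11.4 at day 2, 374 ± 80.7 at day 4 and 481 ± 25.7 at day 6 (SD, n = 3), with log2 fold changes of 1.36 ± 0.10, 1.16 ± 0.10 and 1.53 ± 0.10. BHLHE40, a transcriptional repressor, rose by 1.83, 0.92 and 0.73. DDIT3, a stress-induced transcription factor, fell at each exposure, with -0.36 ± 0.10, -1.61 ± 0.11 and -1.23 ± 0.11.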

How the data were processed

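Messenger RNA was counted in 12 AC16 libraries, 3 per group. The authors deposited unnormalised gene counts, per the file headers, as whole numbers that sum to 14835743 to 21226441 per library. The submitters' processing notes name fastp 0.23.2, Trimmomatic 0.38, STAR 2.7.8, HTSeq 0.13.5 and GRCh38.p13, with no roles or order. Counting strand is not given in the sources used here.

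Tests used edgeR 4.0.16 (R 4.3.3) on these counts. filterByExpr (minimum count 10, minimum total 15) kept 17320 genes. TMM scaling and 1 quasi-likelihood fit over all 12 libraries (8 residual degrees of freedom) gave each comparison. The call threshold was 0.05 after Benjamini-Hochberg adjustment across every tested gene, and SE is the log2 fold change over the square root of F. On simulated data for day 2 against control, 200 genes were changed and 16824 genes passed the filter. The test found 56.7% of the genes changed 1.5-fold, 73.1% at 2-fold and 100% at 4-fold, and 14 of its 163 calls were false. In the real comparison 47.2% of genes were called, a far larger share, so these rates do not carry over to it. Positions and exon lengths are from GENCODE 29, and promoters from RefSeq.

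The genes and lists were chosen with earlier results of these data known. Full values are given for up to 4 genes of each role with the smallest p against control and for genes moving against their role, and up to 4 genes of each further list are named. The rule for the further lists also selects 1 gene that is not reported here. Alternatives were DESeq2 1.42.0, its size factors within edgeR, scaling by totals, other filters (none, or 1 CPM in 3 libraries), a replicate block, a fit of each pair of groups by itself, and each library left out in turn. A fit without the 2 libraries farthest from their groups in mitochondrial share was added after seeing the data.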

Additional observations from a re-analysis of the deposited data

Results flagged for a closer look

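The response differed between lengths of exposure for 17 of the 37 tested genes at day 4 against day 2, where 34.8% of all tested genes were called, and for 6 at day 6 against day 4, where 6.78% were, each tested directly with edgeR's quasi-likelihood test. At day 4 against day 2 the log2 fold changes were -0.39 for SLC2A1, -0.59 for SLC2A3, -0.42 for HK2, -0.25 for GPI, -0.28 for ALDOC, -0.36 for ENO1 and 0.98 for ENO2. They were -0.33 for PKM, -1.44 for PFKFB4, -0.52 for LDHA, -0.28 for SLC16A1 and 0.27 for PDK1. Among the HIF genes they were -0.31 for HIF1A, -1.15 for EPAS1, -0.68 for CA12, -1.60 for NDRG1 and 0.27 for P4HA2. At day 6 against day 4 they were -0.37 for SLC2A1, -0.28 for HK1, -0.29 for GPI, -0.49 for ALDOC, 0.42 for EPAS1 and 0.49 for CA12.

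Leaving out 1 library ended 6 of the 17 calls and 4 of the 6. At day 4 against day 2, ALDOC lost its call without any of 8 libraries, including all 3 of day 6 (-0.28 to -0.21, adjusted p = 0.0539 to 0.193), and GPI without day 2 library 1, day 4 library 1 or day 4 library 2 (-0.24 to -0.18, adjusted p = 0.0532 to 0.116). PKM lost it without day 4 library 2 (-0.26, adjusted p = 0.0518), and SLC16A1 without day 2 library 2 or 3 or day 4 library 1 or 3 (-0.29 to -0.23, adjusted p = 0.0699 to 0.149). HIF1A and PDK1 are given with their values in the report. At day 6 against day 4, SLC2A1 lost its call without day 4 library 3, day 6 library 1 or day 6 library 2 (-0.37 to -0.24, adjusted p = 0.0554 to 0.114), and HK1 without any of 7 libraries (-0.30 to -0.19, adjusted p = 0.0525 to 0.248). GPI lost it without day 4 library 1 or 3 or day 6 library 1 or 2 (-0.30 to -0.21, adjusted p = 0.0843 to 0.18), and ALDOC without day 4 library 3 (-0.41, adjusted p = 0.0646).

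With library totals alone, GPI, ALDOC, SLC16A1 and HIF1A lost their calls at day 4 against day 2 (-0.16, -0.19, -0.20 and -0.22, adjusted p = 0.137, 0.179, 0.144 and 0.055), as did HK1 and GPI at day 6 against day 4 (-0.21 and -0.22, adjusted p = 0.13 and 0.104).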

How the results depend on the processing

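Against control, the counts of genes that rose or fell stayed within 1.5 times of those reported under DESeq2, DESeq2-type size factors, either filter, the replicate block and the 2 compared groups alone. Library totals alone gave 4 glycolysis genes that fell at day 2 in place of 1, and at day 4 against day 2 it gave 2 HIF genes that rose in place of 1. At day 6 against day 4 it gave 2 glycolysis genes that fell in place of 4, and over all genes 1006 that rose in place of 528 and 350 that fell in place of 646. The 2 compared groups alone gave 7 glycolysis genes that fell and 947 genes that rose at day 6 against day 4. Without control 2 and day 2 library 3, 1 HIF gene fell at day 4 in place of 0, and at day 6 against day 4 there were 8 falls among glycolysis genes, with 914 rises and 1113 falls over all genes. The causes were not tested.

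Leaving out 1 library gave 0 to 1 HIF genes that fell at day 4 and 1 to 2 glycolysis genes that rose at day 4 against day 2. At day 6 against day 4 it gave 0 to 1 glycolysis genes that rose, 0 to 8 that fell, and 259 to 833 rises and 307 to 1009 falls over all genes. For glycolysis genes at day 6 against control, the count that rose was 10 without control 1, against 14.

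Same-numbered libraries did not deviate together more than others did (r of -0.17 to 0.096, against -0.22 to 0.17 for unlike numbers). With 3 libraries per group this check cannot show whether they shared a culture, day or batch. The replicate block ended 3 calls of these genes: ALDOC (adjusted p = 0.066) and SLC16A1 (0.0516) at day 4 against day 2, and HK1 (0.0621) at day 6 against day 4. In 92 of 3700 values the sign changed between settings, always past the threshold under neither, the largest reported value among them being 0.15 in size. Depth limits EGLN3 and ANKRD37. Exons shared with genes on the other strand limit ANKRD37, CA9, SLC16A3 and PFKM. ALDOA shares 42.3% of its exon bases, and LDHB 33.4%, with a gene on its own strand, and a pseudogene of EGLN3 holds 24 counts, against 22 for EGLN3 itself. PFKFB4 shares 4.73% of its exon bases with UCN2 on its own strand, and UCN2 holds 22.2% as many counts as PFKFB4.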
